A study of Mus musculus with 11 samples.

Results

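CD49d and CD73 each mark mouse cells called poised for reprogramming in the sample labels, and the values here set the CD49d+ gate against the CD73+ gate. The comparison was defined by the sample labels and uses 4 of the 11 arrays of the study: CD49d+ cells and CD73+ cells, each at day 6 and at day 9. Every group has 1 array, so each difference within a day rests on a single pair of arrays, and the day is the only repeat. All 8 reprogramming arrays hold Rosa-rtTA+/- mouse embryonic fibroblasts that carry viral tetO-Oct4, tetO-Sox2, tetO-Klf4 and tetO-Myc, introduced by infection. Doxycycline, which switches these factors on through rtTA, was added 1 day after infection, and that addition was day 0. The sorted cells were double sorted, on either CD73 or CD49d. The other 4 reprogramming arrays hold CD73- cells, which the labels call non-poised, and unsorted cells at the same days. The controls are uninfected Rosa-rtTA+/- fibroblasts (MEF), a partially reprogrammed line (SC4) and V6.5 embryonic stem cells (ESC).

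CD49d is the integrin alpha 4 chain (gene Itga4), which pairs with a beta chain on the cell surface to bind fibronectin and the adhesion molecule VCAM1. CD73 (gene Nt5e) is a surface enzyme that turns AMP outside the cell into adenosine. Fibroblasts that enter reprogramming give up much of their contractile and matrix gene expression, and smooth muscle actin, collagens and Thy1 are commonly followed as marks of the fibroblast state. In contractile cells, serum response factor binds the CArG box in the promoters of genes such as Acta2.

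Values are intensities deposited by the study's authors, on a linear scale with a floor of 100, and differences are in log2 units, CD49d+ minus CD73+, so that 1 unit is 2-fold. A value at the floor is a bound. Of 22180 named genes, 13313 lay above the floor on at least 1 of the 8 reprogramming arrays and were tested. Across the 11 arrays, 52.14% to 54.31% of the probe sets lay at the floor. In log2 intensity over these genes, the CD49d+ arrays of the 2 days correlated at 0.9896 and the CD73+ arrays at 0.9869, and the 2 gates correlated at 0.9794 at day 6 and 0.9787 at day 9. In cell mixtures such as these, fewer cells of a kind and less RNA per cell cannot be told apart.

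The 2 gates differed little in the genes on which they were sorted. Itga4 had intensities of 1859.1 at day 6 and 1588.0 at day 9 in CD49d+ cells, against 1082.5 and 1205.7 in CD73+ cells. It was thus higher in the CD49d+ gate by 0.78 and 0.40 log2 units (mean 0.59, SE 0.165), and it did not pass the test described below (limma, adjusted p = 0.119). Nt5e had 2828.3 and 2704.1 in the CD49d+ gate, against 3438.1 and 3658.0 in the CD73+ gate, a difference of -0.28 and -0.44 (adjusted p = 0.258). CD73- cells had 331.9 and 292.4, so the CD49d+ cells carried Nt5e transcript near the level of the CD73+ gate. The labels do not say how far both gates hold the same cells. The introduced factor Klf4 read 3997.0 and 3970.6 in the CD49d+ gate, against 3930.0 and 3900.0 in the other, a difference of 0.02 and 0.03. Klf4 does not stand for all the factors. The 3 factor genes tested had median differences of 0.024 at day 6 and 0.273 at day 9. Of these, 2 were higher in CD49d+ cells at both days, 0 were lower at both days and 0 passed.

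Acta2, Tnc, Crabp1, Postn and several collagen genes stood among the genes at least 2-fold higher in CD49d+ than in CD73+ cells at both days. In all, 27 genes were at least 2-fold higher in CD49d+ cells at both days (0.203% of the genes tested), and 19 were at least 2-fold lower at both days (0.143%). Another 2 genes were at least 2-fold apart in opposite directions (0.0150%). At day 6 alone, 100 genes were at least 2-fold higher and 52 lower, and at day 9 alone, 64 were higher and 95 lower. The 27 genes are 27.0% of those higher at day 6 and 42.2% of those higher at day 9, and the 19 genes are 36.5% and 20.0% of those lower. Of the 100 genes higher at day 6, 94 had the same sign at day 9, and of the 95 lower at day 9, 79 had the same sign at day 6. Across all genes tested, which are not independent replicates, the day 6 and day 9 differences correlated at 0.576 (Pearson) and 0.544 (Spearman), with no array shared between the 2 differences.

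**Figure D1:**
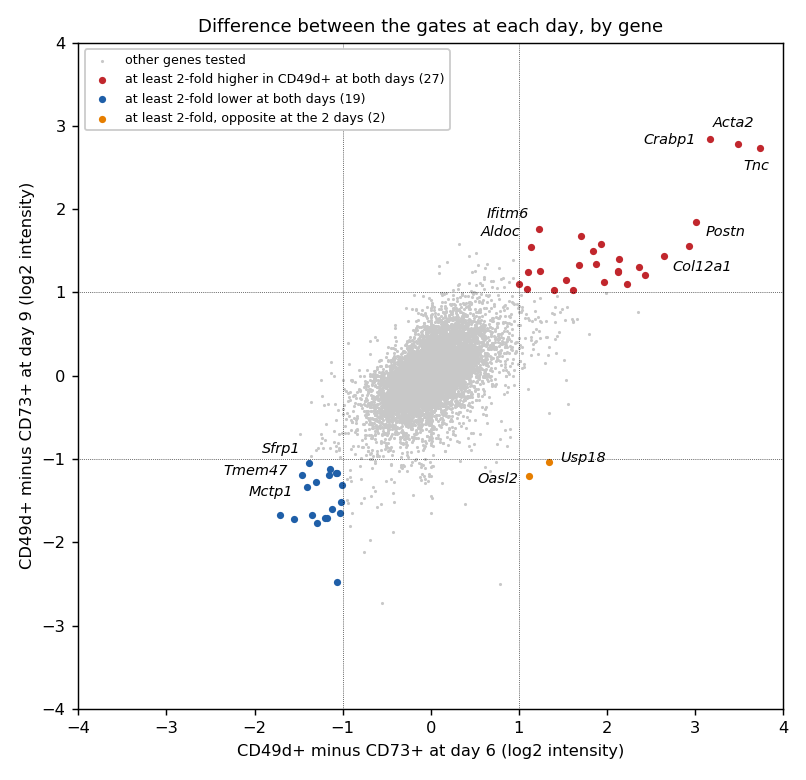
Each point is a gene, placed by its CD49d+ minus CD73+ difference in log2 intensity at day 6 (horizontal) and day 9 (vertical), with dotted lines at 2-fold. The 27 genes higher at both days lie at the upper right, led by Tnc, Acta2 and Crabp1, the 19 lower ones at the lower left, and Oasl2 and Usp18 at the lower right.

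The test across all genes used limma on the 8 reprogramming arrays, with terms for population and day, so its error is the disagreement of population differences between the days. The labels leave unstated whether day 6 and day 9 came from separate cultures, and the p-values measure only that disagreement. At a Benjamini-Hochberg adjusted p under 0.05, 4 of 13313 genes (0.0300%) passed, while 3212 (24.1%) had an unadjusted p under 0.05. The passing genes were A630089N07Rik, Mctp1 and Gabra2, lower in CD49d+ cells, and Scarna2, higher. The count turned on the settings: 625 genes passed when each array was centred on its median (378 of them higher) and 286 after quantile normalization (125 higher). No gene passed when any 1 of the 8 arrays was left out, and leaving out the CD73+ array of day 9 gave the fewest unadjusted p under 0.05, 1696.

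Crabp1, Acta2 and Tnc were the leading genes of the CD49d+ gate. Crabp1, a protein that binds retinoic acid inside the cell, had 3840.0 at day 6 and 2144.5 at day 9 in CD49d+ cells, against 426.1 and 297.8 in CD73+ cells. Acta2, smooth muscle alpha actin, had 5171.8 and 3103.5 in the CD49d+ gate, against 463.0 and 449.5 in the CD73+ gate. Tnc, the matrix protein tenascin C, had 1911.7 and 831.8 against 143.5 and 125.0. For each of the 3 genes the lower CD49d+ value exceeded the higher CD73+ value by several-fold. They lead a set chosen by size of difference, so this describes them and tests nothing. The folds at day 6 and day 9 were 9.01 and 7.20 for Crabp1, 11.2 and 6.90 for Acta2, and 13.3 and 6.65 for Tnc. None passed in limma: Crabp1 had a mean log2 difference of 3.01 (SE 0.214, adjusted p = 0.0587), Acta2 3.13 (SE 0.330, adjusted p = 0.0587) and Tnc 3.23 (SE 0.493, adjusted p = 0.0610). Acta2 passed when arrays were centred (adjusted p = 0.00424), and with each array left out its adjusted p ran from 0.120 to 0.355.

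The levels in CD49d+ cells were closer to those of the other reprogramming cells than the CD73+ levels were. CD73- cells had 2263.5 and 2784.4 for Acta2 and unsorted cells 4596.6 and 7354.0, with 10220.7 in MEF, 6236.5 in ESC and a value at the floor in SC4. For Crabp1, CD73- cells had 3009.1 and 2326.3 and MEF 6887.2, and for Tnc they had 692.5 and 868.1 and MEF 7089.6. In all 3 genes the CD73+ arrays were the lowest of the 8 reprogramming arrays.

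The next matrix and signalling genes ran the same way. Postn, the matricellular protein periostin, had 2041.8 and 1262.6 in CD49d+ cells against 252.8 and 349.7 in CD73+ cells (3.01 and 1.85 log2 units). Bgn, the small proteoglycan biglycan, had 6204.7 and 4325.5 against 1632.7 and 1443.2 (1.93 and 1.58). S1pr3, a receptor for sphingosine 1-phosphate, had 1236.3 and 576.4 against 162.7 and 195.1 (2.93 and 1.56). In these genes too both CD49d+ values lay above both CD73+ values, which their choice at 2-fold on both days nearly ensures. Col12a1, a collagen that lies along collagen fibrils, differed by 2.64 and 1.44, and Col1a1, a chain of type I collagen, by 2.13 and 1.25. Thbs1, thrombospondin 1, differed by 2.14 and 1.40, and Igfbp7, a secreted growth factor binding protein, by 1.88 and 1.34. Loxl3, of the lysyl oxidase family that cross-links collagen, differed by 2.13 and 1.26. Tagln, an actin-binding protein of smooth muscle, had 813.6 and 426.7 against 158.7 and 173.2 (2.36 and 1.30). Rcn3, a calcium-binding protein of the secretory pathway, differed almost equally at the 2 days (1.70 and 1.68). Arhgdib differed by 1.84 and 1.49 and Glipr2 by 1.69 and 1.33.

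**Figure D2:**
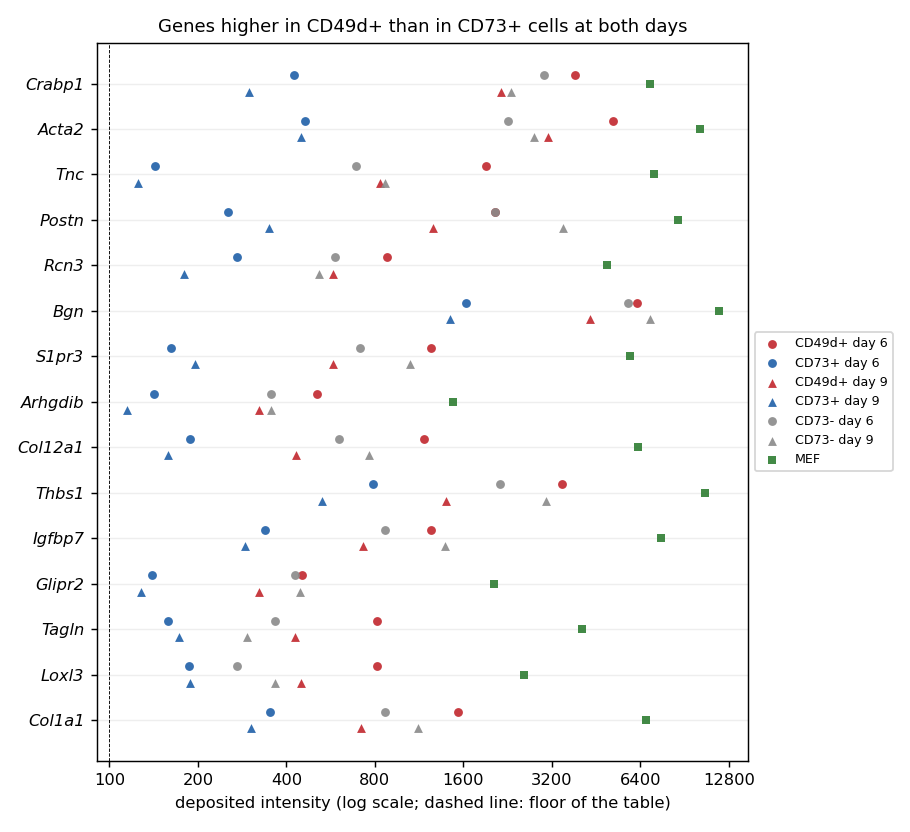
Each row is a gene and each mark the deposited intensity of 1 array on a log scale (circles, day 6; triangles, day 9; squares, MEF), with the floor as a dashed line. CD73+ arrays (blue) lie lowest in each row, CD49d+ (red) and CD73- arrays (grey) above them, and MEF lies highest; Acta2 for example runs from 449.5 to 10220.7.

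The remaining 12 of the 27 genes complete the set, and 8 of them fall outside the rule by which genes were named. Thy1, a surface marker of fibroblasts, had 784.9 and 314.8 in CD49d+ cells against 145.7 and 136.1 in CD73+ cells. Pdgfrb, a receptor for platelet-derived growth factor, had 469.0 and 214.3 and lay at the floor in CD73+ cells on both days, so that it was at least 4.69-fold and at least 2.14-fold higher. Cnn2, the actin-binding protein calponin 2, differed by 1.97 and 1.12 and Aldoc, a glycolytic aldolase, by 1.14 and 1.54. The 8 genes outside the rule were ND6, Ifitm6, Rgs16, Plscr1, Rbm24, Oaf, Dpt and Chac1. Ifitm6 had 282.6 and 339.6 in CD49d+ cells, against 120.3 and 100 in CD73+ cells, and stayed between 100 and 103.5 on the other 7 arrays. Rbm24, an RNA-binding protein, had 357.5 and 423.1 against 167.3 and 206.0, and 100 to 119.1 on the other 7. These 2 genes thus depart from the Acta2 pattern, since CD73- and MEF cells held values at the floor. Aldoc and Plscr1 depart from it as well, with CD73- values below the CD73+ values at both days. CD73- cells had 190.9 and 166.9 for Aldoc, against 408.8 and 405.7 in CD73+ cells. For Plscr1 they had 233.6 and 221.9, against 267.0 and 232.5.

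The difference was smaller at day 9 in most of the set. It was larger at day 6 in 22 of the 27 genes, and the CD49d+ level was lower at day 9 in 24, whereas the CD73+ level was lower at day 9 in 19. The median intensity of the 27 genes was 813.6 at day 6 and 531.3 at day 9 in the CD49d+ gate, against 186.3 and 187.6 in the CD73+ gate. In CD73- cells it was 366.0 and 449.8, in unsorted cells 615.2 and 872.7, in MEF 4774.0, in SC4 134.4 and in ESC 672.8. Over all genes tested the same medians ran only from 374.6 to 411.9. The genes were chosen on the CD49d+ and CD73+ values, so these describe the set and test nothing.

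Most of the set was higher still in uninfected fibroblasts. MEF had a higher intensity than all 4 arrays compared for 22 of the 27 genes. In MEF minus ESC, which shares no array with the comparison, 22 of 27 lay above 0 and 17 were at least 2-fold higher. Among all 13313 genes tested, 47.8% lay above 0 and 1643 genes were at least 2-fold higher. CD73- cells exceeded CD73+ cells at both days in 23 of 27. This count, and that of MEF against the 4 arrays, use arrays on which the genes were chosen, and no share over all genes was taken. Unsorted cells exceeded CD73- cells in 24 of 27 genes at day 6 and in 25 at day 9, against 6850 and 5729 of all 13313.

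The smooth muscle contractile list held 30 genes, of which 25 were tested and 0 passed. Of these, 18 were higher in CD49d+ cells at both days and 0 lower, where 34.8% of all genes tested were higher and 28.3% lower at both days. The shares over all genes depend on the scaling, and this holds beside every list. With centred arrays, 6812 of 13313 genes were higher at both days and 3005 lower, and 20 and 0 of the contractile genes. The median difference was 0.489 at day 6 and 0.200 at day 9, against 0.000 and 0.012 over all genes tested. Beside Acta2, Tagln and Cnn2, the focal adhesion protein Tgfb1i1 had 381.8 and 249.4 against 141.9 and 128.4 (1.43 and 0.96). Calponin 1 (Cnn1) differed by 1.31 and 0.47, myosin light chain Myl9 by 0.91 and 0.63 and tropomyosin Tpm1 by 0.87 and 0.64. Members varied. Myocd, the coactivator that drives the smooth muscle programme, lay at the floor on all 4 arrays. Myh11, smooth muscle myosin heavy chain, had 117.4 and 122.6 against 100 and 103.1. Desmin (Des) had 289.6 and 285.9 against 264.7 and 699.4, lower in CD49d+ cells only at day 9.

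The promoters of Acta2 and Cnn2, contractile genes at least 2-fold higher at both days, are shown for the 250 bases before their start. Tagln, which differed more than Cnn2, had no promoter sequence available. Both promoters shown are RefSeq sequences of GRCm38.p6 on the gene's own strand, with CArG boxes of at most 1 other letter between the outer bases in capitals. Acta2 lies at chr19:34255374-34255623 on the minus strand, with matches that begin 84 and 34 bases before the start, each with 1 other letter. Cnn2 lies at chr10:79988350-79988599 on the plus strand, with 1 match 56 bases before the start that has no other letter.
Acta2: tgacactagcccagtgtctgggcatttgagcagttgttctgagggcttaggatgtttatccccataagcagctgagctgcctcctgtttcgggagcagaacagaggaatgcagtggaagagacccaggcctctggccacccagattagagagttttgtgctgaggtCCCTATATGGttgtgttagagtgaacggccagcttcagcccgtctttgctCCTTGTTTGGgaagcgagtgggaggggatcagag
Cnn2: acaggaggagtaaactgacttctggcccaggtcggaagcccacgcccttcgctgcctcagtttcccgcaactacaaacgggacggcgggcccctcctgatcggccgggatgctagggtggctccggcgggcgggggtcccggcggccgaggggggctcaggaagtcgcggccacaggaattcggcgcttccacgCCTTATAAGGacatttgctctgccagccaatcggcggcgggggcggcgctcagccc
A CArG box with at most 1 other letter occurred in 4 of the 19 contractile genes with a window (21.1%: Acta2, Cnn2, Myl9 and Vcl), against 9.78% of 27025 genes. Of the 27 genes higher at both days, 19 had a window and 5 held it (26.3%). With no other letter allowed, it occurred in 3 of the 19 contractile genes, in 2 of the 19 higher genes and in 1.62% of all. The element reads alike on both strands, and a match is a description of letters, not of binding.

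Matrix genes gave the largest list medians at day 6. Of 30 matricellular and elastic fibre genes tested, 23 were higher at both days, 0 lower and 0 passed, with medians of 1.001 at day 6 and 0.311 at day 9. Loxl1, which cross-links elastin, had 666.6 and 380.3 in CD49d+ cells against 130.5 and 223.7 (2.35 and 0.77). Fbln5, an elastic fibre protein, differed by 1.40 and 0.74 and the CCN family member Ccn2, a target of TGF-beta, by 1.20 and 0.56. Fibronectin (Fn1), which CD49d binds, had 6176.1 and 4923.6 against 5219.6 and 5977.8, so the gates exchanged order. Of 22 collagen chains tested, 18 were higher at both days, 1 was lower and 0 passed (medians 0.555 and 0.361). Col1a2 differed by 1.61 and 0.66, Col6a2 by 1.52 and 0.67 and Col3a1 by 0.80 and 0.41, while Col15a1 was the lower one (-0.32 and -0.43, at the floor in CD49d+ cells). Small proteoglycans varied among themselves: Bgn, Aspn and Ogn were higher at both days, while decorin (Dcn) had 1516.1 and 1285.9 in CD49d+ cells against 2320.0 and 1414.0. Of that list, 4 of 10 were higher at both days and 2 lower.

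Signalling and transcription factor lists lay nearer to all genes. Among 27 TGF-beta ligands, receptors and targets, 14 were higher at both days and 6 lower, with 0 passing (medians 0.163 and 0.033). The activin chain Inhba had 250.6 and 178.4 against 141.0 and 100, and Tgfb1 differed by 0.88 and 0.46. The receptor Acvr1 had the opposite order, with 441.9 and 412.0 against 622.0 and 662.2. Among 26 mesenchymal transcription factors, 11 were higher and 6 lower at both days, and 0 passed. Twist1 (0.49 at both days) and Foxf1 (0.61 and 0.60) were higher, and Tbx15 lower (-0.37 and -0.68). Snai2, a repressor of epithelial genes, had 1010.4 and 710.2 against 1024.1 and 1642.9, and was thus level at day 6 and lower at day 9. Among 14 retinoid genes, 7 were higher at both days and 2 lower, and Crabp1 stood alone at 2-fold. Its relative Crabp2 had 812.8 and 809.5 against 862.7 and 1011.0, and Dhrs3, which reduces retinal, differed by 0.72 and 0.34. Retinal dehydrogenase gene Aldh1a3 had 182.6 and 202.3 against 186.3 and 485.2.

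**Figure D3:**
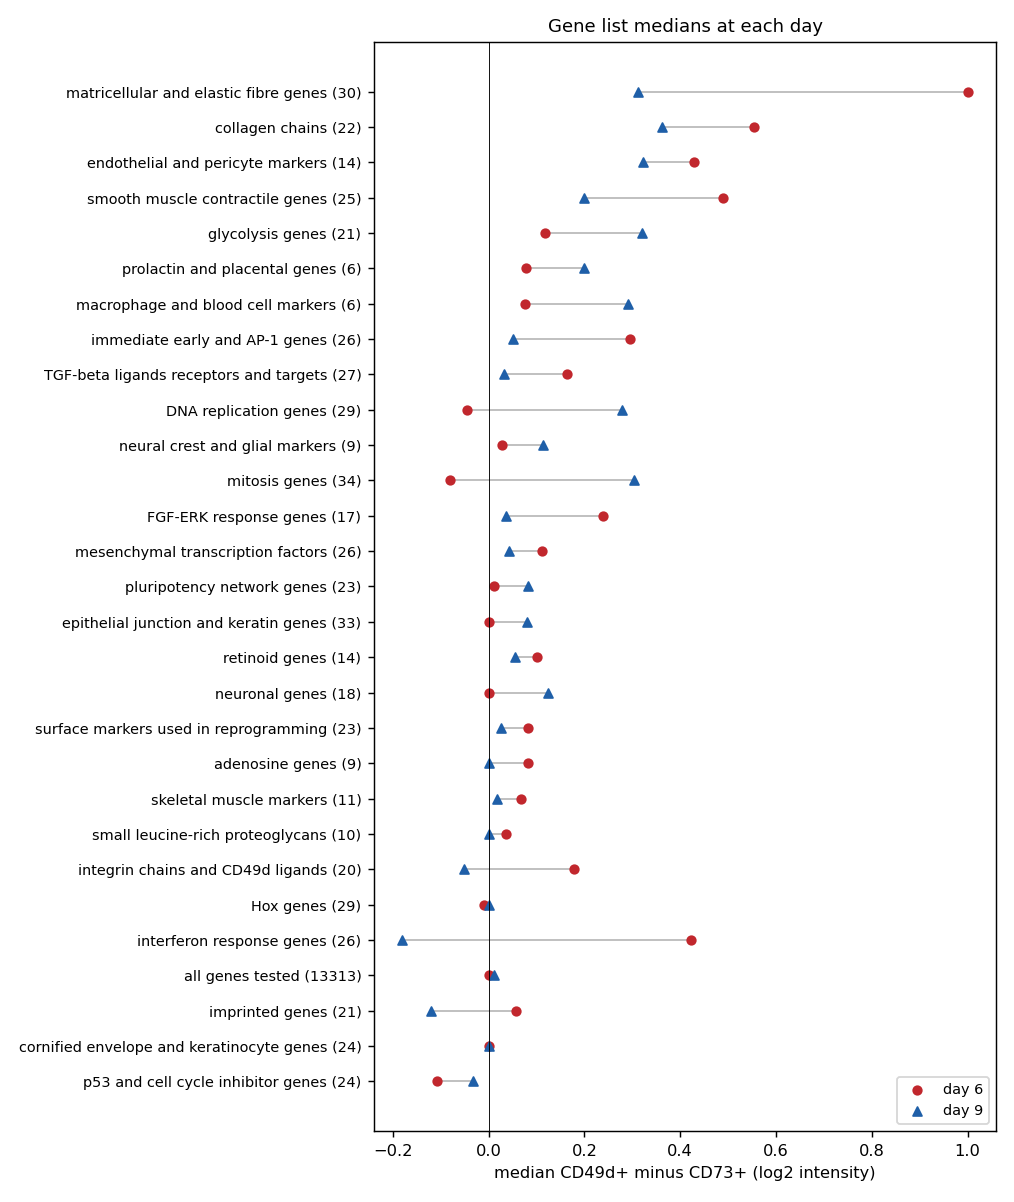
Each row is a gene list with the number of members tested in brackets, and marks give the median CD49d+ minus CD73+ difference in log2 intensity at day 6 (circles) and day 9 (triangles). Matricellular, collagen and smooth muscle lists lie to the right at both days, and the interferon list crosses 0, from 0.423 at day 6 to -0.180 at day 9.

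Of 20 integrin chains and CD49d ligands tested, 4 were higher at both days, 3 lower and 0 passed. Another 8 (40.0%) were higher in CD49d+ cells at day 6 and lower at day 9 and 0 had the reverse order, against 1414 (10.6%) and 2134 of the 13313 genes tested. Itgb1, the main beta partner of CD49d, had 2342.0 and 2131.2 against 2190.0 and 2214.7, and Itgb7 had 287.9 and 186.7 against 190.2 and 209.4. Vcam1, the ligand of CD49d, had 924.9 and 526.1 against 524.7 and 232.3 (0.82 and 1.18, adjusted p = 0.232). Of 9 adenosine genes, 3 were higher and 3 lower at both days, and 0 passed. Adenosine deaminase (Ada) had 289.2 and 302.6 against 193.0 and 164.4, and the nucleoside transporter Slc29a2 had 479.5 and 607.2 against 766.4 and 769.5.

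Markers of other cell types differed by list. Of 17 macrophage and blood cell markers measured, 11 were at the floor throughout the 8 reprogramming arrays, and the summed intensity of the list was 2702.7 and 2748.9 in the CD49d+ gate, against 2551.9 and 2441.8. Laptm5 differed most among these, with 303.1 and 334.9 against 178.0 and 216.4. Of 14 endothelial and pericyte markers tested, 9 were higher at both days, 1 lower and 0 passed (medians 0.428 and 0.323, beside 0.489 and 0.200 for the contractile list). Besides Pdgfrb, the pericyte marker Rgs5 differed by 0.88 and 0.89 and the endothelial markers Egfl7 and Cldn5 by 0.48 and 0.66 and by 0.45 and 0.53. The endothelial markers Pecam1 and Cdh5 were at the floor in CD49d+ cells on both days, and the list summed to 5794.9 and 4873.4 in CD49d+ cells against 4879.0 and 4769.0. The part of these markers in the contractile and matrix differences was not tested. The stem cell factor Nanog lay at the floor on all 4 arrays. Of 23 pluripotency genes tested, 11 were higher at both days, 2 lower and 0 passed, none of them 2-fold at both days.

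Glycolysis and proliferation genes differed more at day 9. Of 21 glycolysis genes tested, 14 were higher at both days and 2 lower, with medians of 0.118 and 0.321 and 0 passing. With centred arrays 15 were higher and 1 lower, against 6812 and 3005 of the 13313 genes tested. Aldoc had 899.8 and 1182.8 in CD49d+ cells against 408.8 and 405.7 in CD73+ cells. The lactate exporter Slc16a3 had 599.9 and 1060.2 against 548.1 and 531.7, and Bnip3, a mitochondrial protein induced by low oxygen, had 381.2 and 616.4 against 357.0 and 247.8. Both were near equal at day 6 and higher in CD49d+ cells at day 9. The medians of 34 mitosis genes were -0.080 at day 6 and 0.304 at day 9. Those of 29 DNA replication genes were -0.044 and 0.279, where the day 6 sign turned to 0.030 with centred arrays. Of the mitosis genes 18 (52.9%), and of the replication genes 18 (62.1%), were lower in CD49d+ cells at day 6 and higher at day 9, against 2134 of the 13313 genes tested, and 0 of either list had the reverse order. With centred arrays the counts were 17 and 9 (31.0%), against 11.4% of all genes, and 1 mitosis gene had the reverse order. No replication or mitosis gene passed in either direction. Cdk1, the kinase that starts mitosis, was higher in CD49d+ cells at both days (0.56 and 0.59), as was the centromere histone Cenpa (0.35 and 0.99). Of 24 p53 and cell cycle inhibitor genes, 14 were lower at both days (58.3%, against 28.3% of all genes tested) and 5 higher, and 0 passed. With centred arrays 9 of them were lower and 5 higher at both days, with medians of -0.034 and -0.018. Mdm2, the p53 target that limits p53, had 1333.3 and 1501.3 against 2105.1 and 2316.4.

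The genes lower in CD49d+ cells were a mixed group with lower intensities, and not all of them were highest in the CD73+ gate. Mctp1, a membrane protein with calcium-binding C2 domains, had 116.7 and 105.0 in the CD49d+ gate, against 308.0 and 265.8 in the CD73+ gate. It fell in CD49d+ cells by 1.40 and 1.34 log2 units (mean -1.37, SE 0.0797, adjusted p = 0.0407), and the call did not hold with any of the 8 arrays left out (adjusted p 0.120 to 0.355). It lay at the floor in CD73-, unsorted, MEF and ESC arrays and at 129.7 in SC4, so the CD73+ arrays were the only ones above 130. Gabra2, a chain of the GABA-A receptor, was at the floor in CD49d+ cells and at 205.0 and 196.8 in CD73+ cells, at least 2.05-fold and at least 1.97-fold lower (adjusted p = 0.0407). It too lay at the floor in CD73-, unsorted, MEF and ESC arrays, with 272.7 in SC4. Gabra2 thus entered the test only through the CD73+ arrays where it is high, and its other 6 reprogramming arrays, all at the floor, give no spread. With the floor raised to 200 its difference was -0.02 (adjusted p = 0.905) and that of Mctp1 -0.52 (adjusted p = 0.0449). The RIKEN clone gene A630089N07Rik had 138.2 and 211.8 against 452.0 and 675.1 (-1.71 and -1.67, SE of the mean 0.0567, adjusted p = 0.00825). The one higher in CD49d+ cells, Scarna2, a small RNA of Cajal bodies, had 1377.0 and 1380.0 against 725.4 and 711.7 (0.92 and 0.96, adjusted p = 0.0407). For Scarna2, unsorted cells had 1345.3 and 1277.1, near the CD49d+ level, and CD73- cells 852.7 and 834.3. MEF had 1012.1, SC4 1249.7 and ESC 1242.0.

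Of the lower genes that did not pass, Atp5l, a subunit of ATP synthase, had 434.9 and 414.3 in CD49d+ cells against 1271.6 and 1368.1 in CD73+ cells. Tmem47, a membrane protein of cell junctions, had 1591.1 and 1670.5 against 4374.7 and 3828.9 on the brighter of its 2 probe sets. CD73- cells were higher still for Tmem47, with 4521.1 and 4228.2. Sfrp1, a secreted inhibitor of Wnt signalling, had 1021.8 and 1078.0 against 2656.6 and 2236.0. In each of these genes both CD49d+ values lay below both CD73+ values, which their choice at 2-fold on both days nearly ensures. Sox1, a transcription factor of early neural cells, had 325.9 and 471.3 against 724.5 and 1074.3, and lay at the floor in MEF. Urb2, needed for ribosome assembly, had 1720.9 and 1993.7 against 3790.8 and 4343.9. Man1c1, a mannosidase of the Golgi, differed by -1.30 and -1.77 and Psd3, which also has 2 probe sets, by -1.20 and -1.70. With both probe sets averaged, the mean difference was -0.66 for Tmem47 and -0.73 for Psd3, and the lower set held 17 genes. Crybg1 differed by -1.17 and -1.70, Camk1d, a calmodulin-dependent kinase, by -1.08 and -1.17 and Lrrc7 by -1.02 and -1.51. Ceacam10 differed by -1.03 and -1.65, Phxr4 by -1.12 and -1.60 and the cytochrome P450 gene Cyp3a13 by -1.06 and -1.17, the last with CD49d+ at the floor at day 9. For Ceacam10, unsorted cells had 383.0 and 540.3, above the 361.3 and 501.0 of CD73+ cells.

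**Figure D4:**
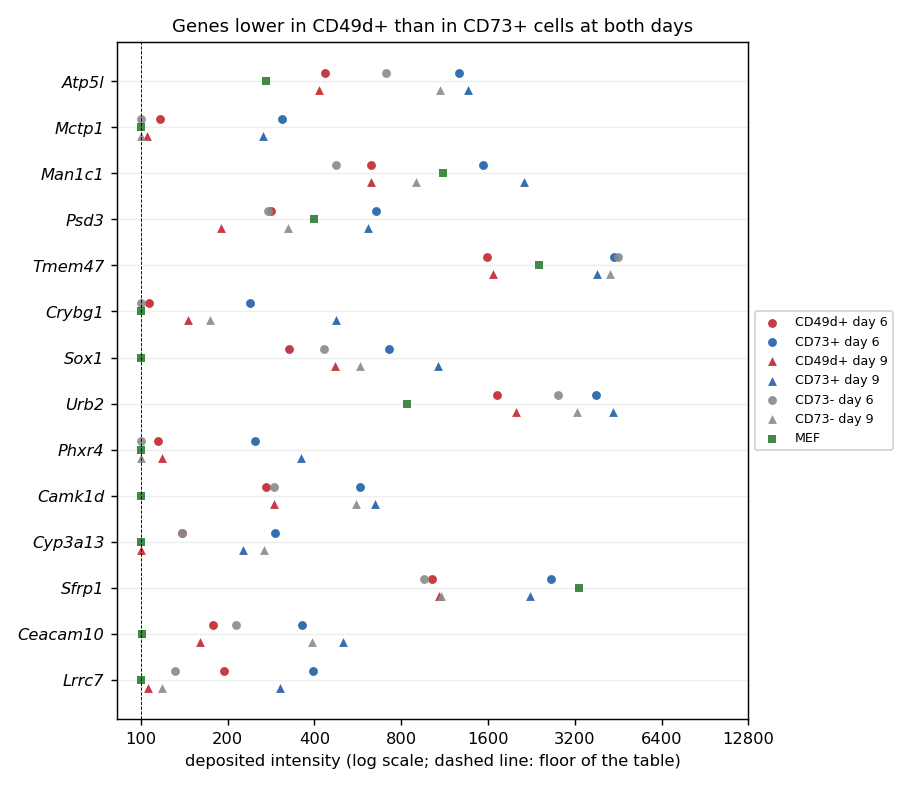
Each row is a gene and each mark the deposited intensity of 1 array on a log scale, with symbols as in the plot of the higher genes and the floor as a dashed line. CD73+ arrays (blue) lie to the right of CD49d+ arrays (red) in every row, and MEF (green) lies at or near the floor for 8 of these genes, Mctp1 and Sox1 among them.

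The lower set stood differently in the arrays outside the comparison. CD73- cells lay below CD73+ cells at both days in 17 of the 19 genes, and MEF lay at the floor in 9 and below all 4 arrays in 12. Of all 22180 named genes, tested or not, 43.04% lay at the floor in MEF. No share over the genes tested was taken, so the floor count is a description only. The genes were chosen for CD73+ values above the CD49d+ values, so counts against those arrays describe the set and test nothing. The median intensity of the set was 194.7 and 189.0 in the CD49d+ gate, 452.0 and 615.5 in the CD73+ gate and 100.3 in MEF. The difference was larger at day 9 in 13 of 19. In MEF minus ESC, 7 (36.8%) lay above 0 and 6 below, with a median of 0.00, against 47.8% above 0 among all genes tested.

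Probe sets for 2 microRNA genes were in the lower set, and their mature products are printed to show that the seeds (bases 2 to 8, in capitals) differ. Mir181b-1 had 148.5 and 120.0 in CD49d+ cells against 365.3 and 289.5 in CD73+ cells, and Mir3097 had 166.9 and 178.4 against 336.5 and 443.6. The probe sets were annotated to the genes, and the labels do not say whether they read precursor or mature RNA. RefSeq places Mir181b-1 at chr1:137966639-137966718 and Mir3097 at chr5:35021049-35021115, both on the plus strand of GRCm38.p6.
miR-181b-5p: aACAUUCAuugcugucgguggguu
miR-181b-1-3p: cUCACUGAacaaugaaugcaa
miR-3097-5p: cACAGGUGggaagugugugucca
miR-3097-3p: cUCAGACCuuucuaccugucag

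Both genes that were opposite between days at 2-fold belong to the interferon response, the antiviral programme that cells switch on after sensing interferon. Oasl2, of the oligoadenylate synthetase family, had 269.8 in CD49d+ and 124.7 in CD73+ cells at day 6, and 176.2 and 404.6 at day 9. Usp18, which removes ISG15 from proteins and damps interferon signalling, had 463.6 and 182.9 at day 6, and 193.5 and 395.7 at day 9. Both were thus higher in the CD49d+ gate first and higher in the CD73+ gate later, by 1.11 and -1.20 for Oasl2 and 1.34 and -1.03 for Usp18. Within each gate, CD49d+ values were lower at day 9 than at day 6 and CD73+ values were higher. CD73- cells were also higher at day 9, with 100 and then 215.7 for Oasl2 and 130.3 and then 347.1 for Usp18. So were unsorted cells, with 178.8 and then 192.6 for Oasl2 and 360 and then 465.5 for Usp18.

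At 1.5-fold, 12 genes were opposite, all of them higher in CD49d+ cells at day 6 and lower at day 9, and 6 of the 12 were on the interferon list. Oas2, an oligoadenylate synthetase, had 496.1 and 287.3 at day 6, and 203.0 and 1147.8 at day 9 (0.79 and -2.50). The transcription factor Irf7 had 251.2 and 145.3, then 153.8 and 260.1, and Xaf1 had 631.1 and 353.2, then 514.0 and 806.8. Rtp4 was also on the interferon list (0.89 and -0.73). The 6 genes not on that list were Oas1b, Klk1, Rian, Tac2, Helz2 and Lgals9. The list does not hold every interferon response gene, and Oas1b is an oligoadenylate synthetase like Oas2. Klk1, a kallikrein protease, and Tac2, a neurokinin precursor, differed from the rest of the 12 in that both gates were higher at day 9. The secreted lectin Lgals9 had 1224.3 and 658.0, then 1005.3 and 1572.2.

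**Figure D5:**
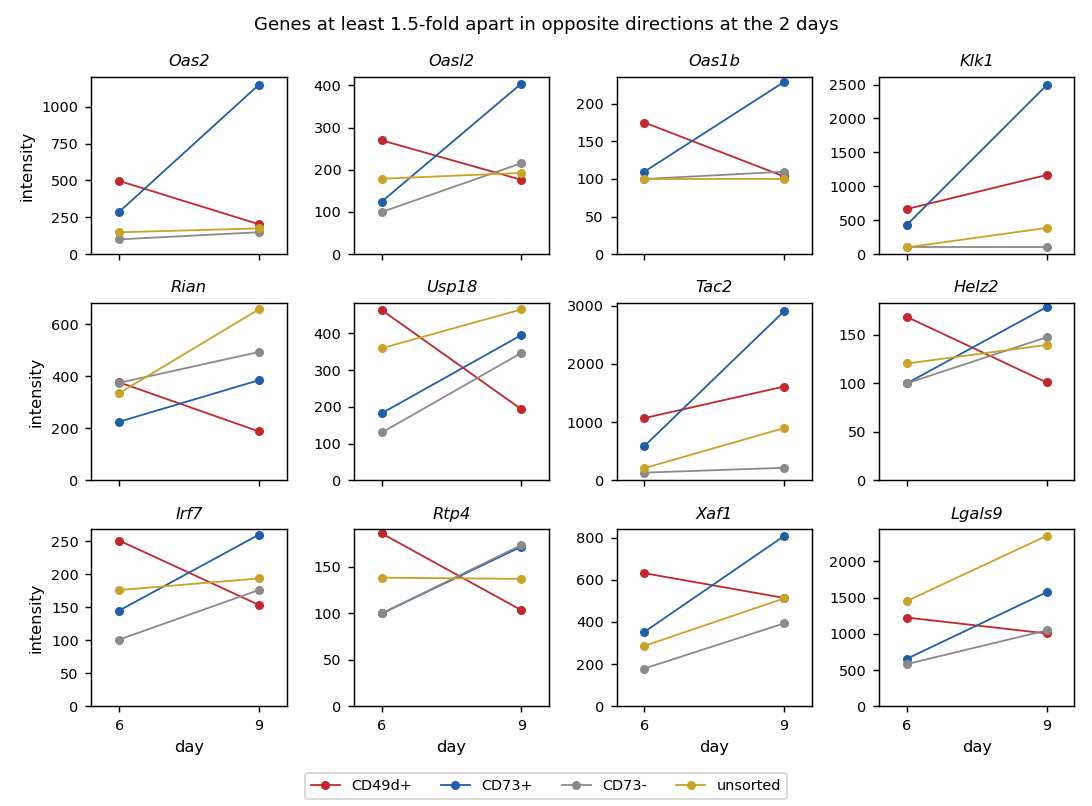
Each panel is a gene, with intensity (linear axis from 0) against day for CD49d+, CD73+, CD73- and unsorted cells, 1 array a point and lines joining the days. CD49d+ lies above CD73+ at day 6 and below it at day 9 in all 12 panels, and for Oas2 the CD73+ value of day 9, 1147.8, stands above all others.

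Over the interferon list, 13 of 26 genes tested were higher in CD49d+ cells at day 6 and lower at day 9, against 10.6% of all genes tested, and 1 had the reverse order. The order was also more frequent than among all genes in the integrin list above, in immediate early genes (34.6%) and in FGF-ERK response genes (29.4%). The interferon list median was 0.423 at day 6 and -0.180 at day 9. Exceptions were H2-K1, a class I histocompatibility gene, with 891.7 and 604.8 at day 6 and 1236.8 and 573.1 at day 9, and the peptide transporter Tap1 (0.47 and 0.43). Rsad2, an antiviral enzyme, was lower at both days (-0.27 and -0.95). The test of the change between days, an interaction term in limma, passed 0 of 13313 genes, with 680 (5.11%) at an unadjusted p under 0.05. Oas2 had the smallest p among these 12 genes (6.9e-05, adjusted p = 0.878) and alone passed with centred arrays.

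In the bases before the start, a pair of GAAA elements with NN between them, read on both strands, was searched as the core that interferon-activated factors bind. It occurred in 10 of 23 interferon genes with a window (43.5%), against 3.46% of 27025 genes. Of the 12 opposite genes 8 had a window, and 1, Lgals9, held it. Usp18 and Oas2 were among those without a window, so they could not be searched.

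Intensities under 200 weighed on the counts. With all values below 200 set to 200, 17 of the 27 higher genes and 10 of the 19 lower genes remained at 2-fold and neither of the opposite genes did. Genes just inside the 2-fold limit were Chac1 (1.005 and 1.107) and Mir3097 (-1.01 and -1.31), and genes just outside were Ccl2 (1.99 and 0.99) and Gabra2 (-1.04 and -0.98).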

How the data were processed

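Total RNA was labelled with an Affymetrix whole-transcript kit, per the labels' protocols. The authors deposited 1 table of intensity for 41345 probe sets on 11 arrays, and the submitters' processing notes name Partek. No source used here gives the background correction, summarisation or scaling. The lowest value is 100. The log2 of the deposited intensity was taken, with no scaling added. Probe sets with 1 gene symbol (23521) were used, those with several (1814) or none (16010) were not, and a gene took its probe set of highest mean.

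Differences were taken within each day. limma 3.58.1 (R 4.3.3) fitted population and day to the 8 reprogramming arrays (3 residual degrees of freedom, prior 2.12), and the fit was tested on simulated data. The number of arrays limits the precision. Members and the 31 gene lists were chosen with earlier results of these data known. Of 763 listed entries 706 matched.

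Genes were named by size: the 15 with the largest smaller difference of both days in each direction, up to 6 opposite genes, passing genes, and list members passing or at 2-fold. Predicted genes, clones and short RNAs were left out, and those shown (A630089N07Rik, the microRNA genes and 8 higher genes) were chosen after their values were seen, as were the opposite genes at 1.5-fold and the list examples under 2-fold. Alternatives changed scaling, filter, floor, probe sets, arrays, day term and threshold.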

Additional observations from a re-analysis of the deposited data

Results flagged for a closer look

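The CD49d+ minus CD73+ difference turned sign between the days in Oasl2 and in Usp18, at 2-fold or more on each day. The day 9 difference minus the day 6 difference was -2.31 log2 units for Oasl2, with an SE of 0.508. It was -2.37 for Usp18, with an SE of 0.852. Neither passed the interaction test in limma, with an adjusted p of 0.878 for both genes, and each value rests on 4 single arrays.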

How the results depend on the processing

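The number of genes passing limma was 4 as reported. It was 625 with each array centred on its median, 286 after quantile normalization, 1 with no filter, 446 with genes whose highest of the 4 arrays compared was at least 200, 411 with the floor raised to 200, 160 with no day term and 278 with an intensity trend. It was 0 with the 6 sorted arrays only (3038 at an unadjusted p under 0.05) and with the 4 arrays compared only (2372). Leaving out each of the 8 arrays in turn gave 0 to 0, with 1696 to 3038 at an unadjusted p under 0.05. The cause was not tested, except that with no filter the adjustment ran over 22180 genes. The 27 higher genes became 17 with the floor at 200, 144 at 1.5-fold and 5 at 3-fold. The 19 lower became 10, 122 and 1. The 2 opposite genes became 0 with the floor at 200 and 12 at 1.5-fold. The interaction passed 1 gene with centred arrays, Oas2. Over 698 single values of 40 followed genes, 547 kept their side of the threshold, 45 lost it, 106 gained it and 0 reversed. Most of these genes were chosen for the size of their difference. Settings that change only the other arrays, the day term, the trend or the filter leave the difference itself unchanged. The lack of reversals therefore tests nothing. Centring moved the median of all genes from 0.000 to 0.074 at day 6 and from 0.012 to 0.026 at day 9. The day term of the fit as reported pairs the gates by day. Values near the floor of 100 limit the folds of dim genes.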

Other observations

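Among imprinted genes, which are expressed from 1 parental copy, Zim1 had intensities of 117.2 and 122.9 in CD49d+ cells at day 6 and day 9, against 188.7 and 483.5 in CD73+ cells. Igf2, a fetal growth factor, had 434.7 and 290.1 against 223.9 and 221.7. Of 21 imprinted genes tested, 8 were higher in CD49d+ cells at both days, 7 lower and 0 passed in limma. Fabp7, a fatty acid binding protein of glia, had 1122.8 and 573.9 against 2765.2 and 1064.6, and Ret, a receptor of neural crest cells, had 297.2 and 367.1 against 375.3 and 769.9. The hyaluronan receptor Cd44 had 819.8 and 855.3 against 912.6 and 1544.9, and the epithelial adhesion protein Epcam had 286.5 and 787.1 against 263.2 and 400.7.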
